A study of Rattus norvegicus with 2 samples.

Results

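Glypicans, syndecans and versican are the core proteins that carry much of the heparan sulfate and chondroitin sulfate at and around the cell surface. The 9 genes described here are 4 glypicans (Gpc1, Gpc3, Gpc4 and Gpc6), 4 syndecans (Sdc1, Sdc2, Sdc3 and Sdc4) and versican (Vcan), found by their symbols among the 32623 genes listed for cells of the rat cochlear duct. Each symbol matched 1 row. The 2 libraries came from Sprague-Dawley rats, 1 library from postnatal day 1 (P1) and 1 from postnatal day 7 (P7), each from the pooled cochlear ducts of many animals. Dissociated cells were captured in droplets and their transcripts were tagged near the 3′ end, so that each unique molecular identifier (UMI) stood for about 1 captured transcript whatever the length of the gene. With 1 library per age, age and library cannot be told apart, no test between ages was possible and no p-value is given. All intervals are exact, at the 95% level, and cover counting error only.

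Glypicans are held on the outer leaflet of the membrane by a lipid anchor, whereas syndecans cross the membrane and have a short cytoplasmic tail. Both carry heparan sulfate, a sulfated sugar chain that binds Wnt, hedgehog, FGF and BMP ligands and thereby sets how they spread and reach their receptors. Versican is a large secreted chondroitin sulfate proteoglycan that binds hyaluronan and is typical of the loose, still growing matrix of young connective tissue.

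The libraries held 14068 barcodes at P1 and 14501 at P7, of which 12779 and 12581 passed the limits on genes, UMIs and mitochondrial share, with medians of 6565 and 6878 UMIs per cell. Of the kept barcodes, 53 occurred in both libraries. Both libraries are labelled as cells of the greater epithelial ridge, the columnar epithelium beside the organ of Corti. Cells were assigned to classes by marker genes (a marker gate). By this gate 151 cells (1.18%) at P1 and 81 (0.644%) at P7 were epithelial-like, by Epcam, Krt8 and their partners. With clusters of cells in place of the gate, 298 and 210 cells were epithelial-like. By the gate 65.1% and 56.6% of cells were mesenchymal, which goes against the label. The mesenchymal classes are named by leading genes as Otor-Crym (3997 and 3811 cells), Dcn-Edn3 (1961 and 2220), Aldh1a2-Scara3 (535 and 541) and Ccn3-Irx3 (1821 and 548). The other classes were glia-like (1548 and 3398), pericyte-like (279 and 255), endothelial-like (152 and 170), macrophage-like (165 and 152) and neuron-like cells (330 at P1, but 26 at P7, which were not used). Cells left ungated numbered 1807 and 1364. In the classes reported, each marker peaked in its own class at both ages except Emcn, Mgp, Col9a2, Isyna1 and Clu, and for neuron-like cells this was checked at P1 only. The same markers assigned the cells, so these peaks follow largely from the gate and are no independent check of the classes. Hair cell-like (21 and 0 cells), melanocyte-like (8 and 6) and osteoblast-like cells (4 and 9) were too few to be described, and their markers were not checked.

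The promoters of 6 members were found in the RefSeq table of the GRCr8 assembly. Those of Gpc3 and Sdc3 are shown because these members were higher at P7 in most classes, with the 250 bases before the start of each gene and GC boxes (GGGCGG on either strand, written CCGCCC on the other) in capitals. The Gpc3 window is chrX:137157599-137157848 on the minus strand and the Sdc3 window is chr5:148249542-148249791 on the plus strand.
Gpc3: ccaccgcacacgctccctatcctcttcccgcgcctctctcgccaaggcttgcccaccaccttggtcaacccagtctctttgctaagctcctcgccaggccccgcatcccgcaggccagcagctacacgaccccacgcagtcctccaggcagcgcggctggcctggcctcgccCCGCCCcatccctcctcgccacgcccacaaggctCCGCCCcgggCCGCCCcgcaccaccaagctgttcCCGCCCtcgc
Sdc3: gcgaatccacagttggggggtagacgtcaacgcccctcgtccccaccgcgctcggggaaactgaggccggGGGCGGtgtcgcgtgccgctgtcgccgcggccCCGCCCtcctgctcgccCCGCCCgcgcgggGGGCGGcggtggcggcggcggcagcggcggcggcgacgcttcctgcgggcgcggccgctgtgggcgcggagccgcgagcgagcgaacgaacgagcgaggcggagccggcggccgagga
Each window held 4 GC boxes, and 30.5% of the 33469 windows of this length in the table held at least 1. Their GC contents were 71.6% for Gpc3 and 80.0% for Sdc3, against a median of 51.2%. The TATA box letters TATAAA, searched on both strands, were in 12.9% of all windows and in neither of these. Such matches describe the letters of the window only.

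Over all kept cells, Gpc3 was the most abundant glypican and Vcan, Sdc2 and Sdc3 the next most abundant members at both ages. In UMIs scaled to a common total of 1000000 per class and library (CPM), Gpc3 stood at 208 at P1 and 469.6 at P7, Gpc6 at 11.7 and 5.05, and Sdc3 at 50.5 and 95.6. On the log2 scale P7 over P1 came to 1.17 (1.15 to 1.20) for Gpc3, -1.21 (-1.37 to -1.06) for Gpc6 and 0.92 (0.87 to 0.97) for Sdc3. A change was counted where the level differed at least 2-fold and the library with the higher level held at least 50 UMIs. By this rule 1 of the 9 members, Gpc3, was higher at P7, as were 11.2% of the 14199 genes with enough UMIs, and 1 member, Gpc6, was lower, as were 12.4% of those genes. Both shares are close to the background. The remaining log2 ratios lay between -0.14 for Gpc4 and 0.22 for Sdc4, beside a median of 0.05 over all genes counted. Fewer cells of a type and less RNA per cell cannot be told apart in such sums. In a further sum, each of the 9 classes with at least 50 cells at both ages was held at its P1 share of UMIs. All other cells, neuron-like and ungated ones included, were pooled and held at their joint P1 share. The loss of neuron-like cells within that pool was therefore not held fixed. The log2 ratio was then 1.18 for Gpc3, -1.11 for Gpc6 and 0.69 for Sdc3. Between P1 and P7 the share of glia-like cells went from 12.1% to 27.0%, that of Ccn3-Irx3 mesenchyme from 14.2% to 4.36% and that of neuron-like cells from 2.58% to 0.207%. The part of any single class in the smaller Sdc3 value was not tested.

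**Figure D1:**
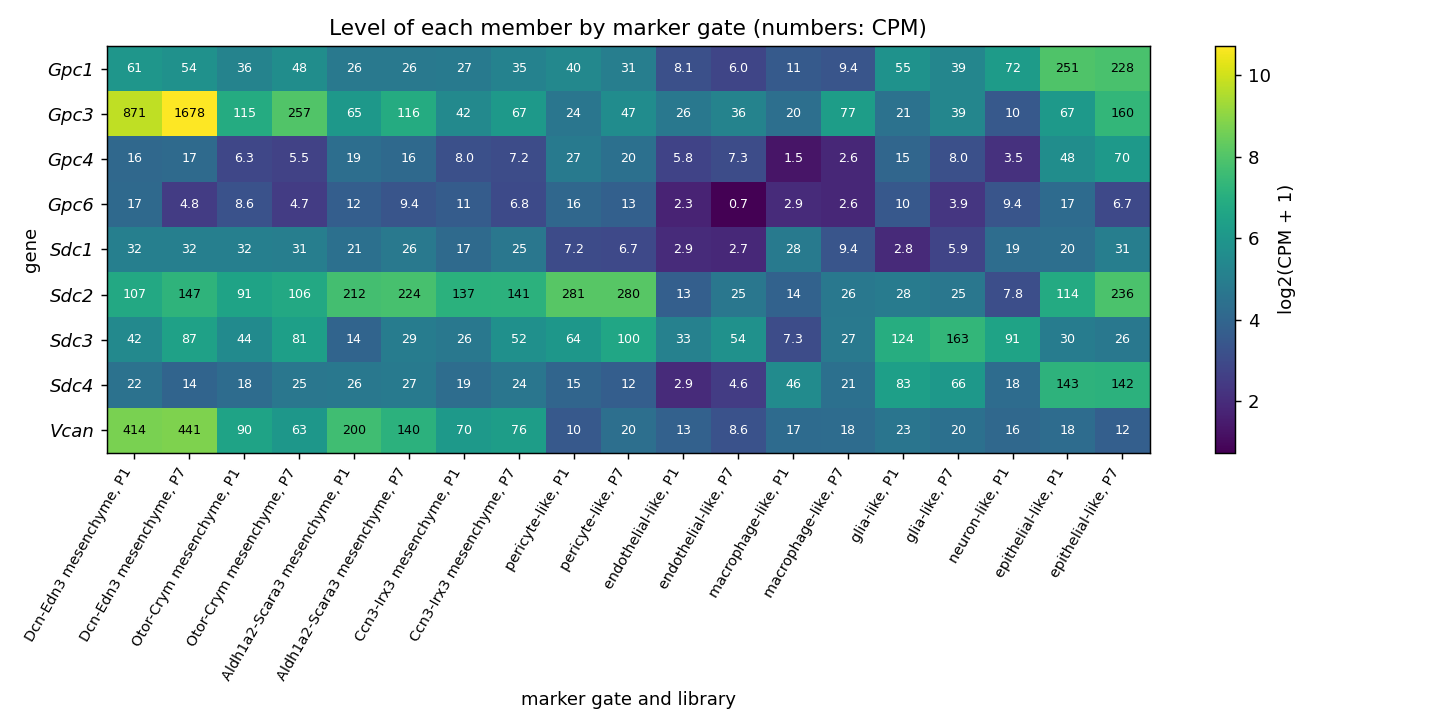
Level of each member (rows) in each marker gate and library (columns), in CPM as printed and coloured as log2(CPM + 1). The yellow cells are Gpc3 in Dcn-Edn3 mesenchyme, at 871 CPM at P1 and 1678 CPM at P7.

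Gpc3, a glypican best known as a restraint on body growth and as a binder of hedgehog and Wnt ligands, was highest in the Dcn-Edn3 mesenchyme, the class that leads with the collagen-binding proteoglycan decorin and with endothelin 3. It stood there at 871 CPM (856 to 886) at P1 and 1678 CPM (1658 to 1698) at P7. These levels were 7.55 and 6.52 times those of the next class, Otor-Crym mesenchyme, with 115 and 257 CPM. When clusters of cells took the place of the marker gate, the Otor-Crym levels were 159.7 and 441 CPM and the Dcn-Edn3 levels 769.6 and 1937 CPM. The Dcn-Edn3 class held 62.3% and 62.1% of all Gpc3 UMIs. After each cell was thinned to 2000 UMIs, Gpc3 was found in 70.3% (68.2 to 72.4) and 90.5% (89.1 to 91.7) of these cells, and unthinned in 88.4% and 96.0%. By comparison, 0.629% of the P1 neuron-like cells held a Gpc3 UMI after thinning and 11.5% unthinned. Their median depth was 20288.5 UMIs, against 6910 in the P1 Dcn-Edn3 cells. The lowest level at P7 was in endothelial-like cells, at 35.8 CPM.

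The Gpc3 level was higher at P7 in 9 of 9 classes with at least 50 cells at both ages, and the counting interval lay above 0 in 8 of them. With clusters in place of the gate it was higher in 8 of 9, since Ccn3-Irx3 mesenchyme turned from 41.8 and 66.9 CPM to 49.5 and 41.4 CPM. The log2 ratio was 1.16 (1.10 to 1.22) in Otor-Crym mesenchyme, 1.25 (0.89 to 1.62) in epithelial-like cells and 1.97 (1.34 to 2.65) in macrophage-like cells, which all passed the 2-fold rule. In the Dcn-Edn3 class, where the gene is most abundant, the value of 0.95 (0.92 to 0.98) lay just under it, and with clusters it was 1.33. In Aldh1a2-Scara3 mesenchyme it was 0.83 with the gate and 1.45 with clusters. The endothelial-like interval, 0.47 (-0.13 to 1.07), held 0. In macrophage-like cells the levels of 19.6 and 77.1 CPM were 0.50 and 0.546 times what free RNA alone would give by the level of Otor, an abundant mesenchymal transcript, in the same cells, so these levels were at or below background, and the log2 ratio with clusters was 2.70. Endothelial-like cells stood at 1.74 and 1.09 times the free RNA level, pericyte-like cells at 1.48 and 1.52 times and glia-like cells at 2.70 and 1.79 times. The part of free RNA in the higher P7 levels of these classes was not tested. Epithelial-like cells were further above the free RNA level at 5.10 and 6.25 times, with 67.2 and 160.0 CPM. At P7 the 43 epithelial-like cells with tectorial membrane genes such as Tecta and Otog, which make the gel over the hair cells, had 86.3 CPM (63.4 to 115), and the 38 others 239.6 CPM (199 to 286). At P1 the same parts had 83.1 and 58.9 CPM, with overlapping intervals.

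Gpc1, a glypican of neurons, muscle and many epithelia, was highest in the epithelial-like cells, at 251 CPM (226 to 277) at P1 and 228 CPM (199.7 to 258) at P7. The next classes were the neuron-like cells at P1, with 72.4 CPM, and the Dcn-Edn3 mesenchyme at P7, with 54.3 CPM. Thinned epithelial-like cells held a Gpc1 UMI in 40.3% and 41.2%, unthinned in 80.1% and 85.2%, whereas thinned endothelial-like cells did so in 2.13% at P1 and in 0 of 145 cells at P7, an interval up to 2.51%. Unthinned, the endothelial-like shares were 7.24% and 4.71%. Median depths were 8958 and 12068 UMIs in the epithelial-like cells and 9315.5 and 6990 in the endothelial-like cells. Gpc4, a glypican whose gene neighbours that of Gpc3 on the X chromosome in the RefSeq annotation, had its highest level in the same epithelial-like cells, at 48.5 and 69.5 CPM, followed by pericyte-like cells at 26.8 and 20.2 CPM. Its levels in the Dcn-Edn3 class, where Gpc3 peaked, were 16.3 and 17.1 CPM. In glia-like cells Gpc4 stood at 15.2 and 7.95 CPM, a log2 ratio of -0.94 (-1.27 to -0.60).

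Gpc6, a glypican of mesenchyme and growing skeleton, was scarce throughout, with at most 17.4 CPM in any class, and its highest class could not be ordered, because the intervals of neighbouring classes overlapped. Its levels were lower at P7 in 9 of 9 classes, and 5 counting intervals lay below 0. In Dcn-Edn3 mesenchyme it stood at 16.8 and 4.76 CPM, a log2 ratio of -1.82 (-2.21 to -1.45) that came to -2.55 with clusters, and in glia-like cells at 10.1 and 3.90 CPM, a log2 ratio of -1.37 (-1.82 to -0.92). Gpc3 and Gpc6 therefore stood in opposite directions between the ages in the same Dcn-Edn3 cells.

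**Figure D2:**
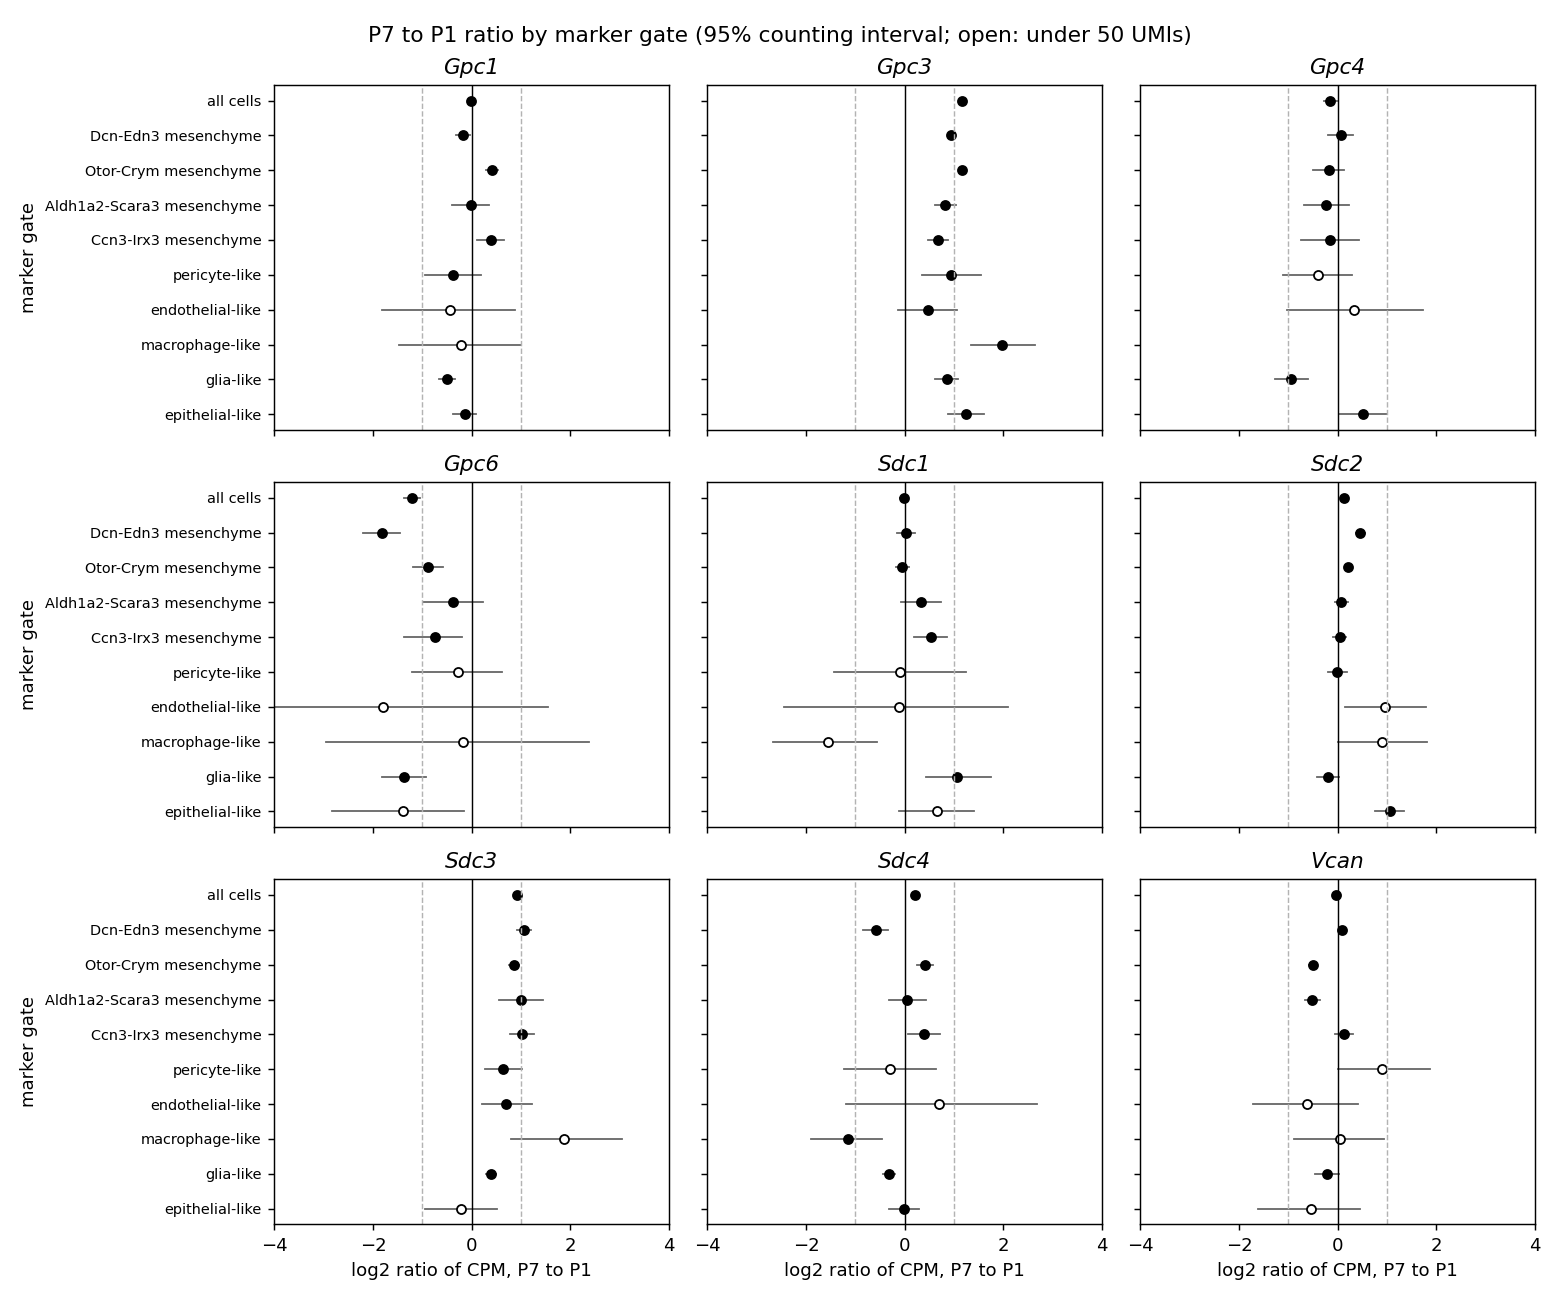
The log2 ratio of the CPM at P7 to that at P1 for each member (panels) in all cells and in 9 marker gates (rows), with exact counting intervals, where dashed lines mark 2-fold, open circles have under 50 UMIs in the higher library, intervals past 4 are cut off, and no point is drawn for Gpc4 in macrophage-like cells (2 and 3 UMIs). All Gpc3 points lie to the right of 0 and all Gpc6 points to the left.

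The glypicans thus had different leading members in different classes. Gpc3 gave 90.2% of the UMIs of the 4 glypicans in Dcn-Edn3 mesenchyme at P1 and 95.7% at P7. Gpc1 led in epithelial-like cells, with 65.3% and 49.1%, and in P1 neuron-like cells, with 75.6%. In glia-like cells Gpc1 gave 54.2% at P1, while at P7 it gave 43.6% and Gpc3 43.2%, whose intervals overlapped. In these P7 cells the Gpc3 level was only 1.79 times the level given by free RNA, against 18.1 times for Gpc1. The Gpc3 share there may therefore hold much free RNA.

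**Figure D3:**
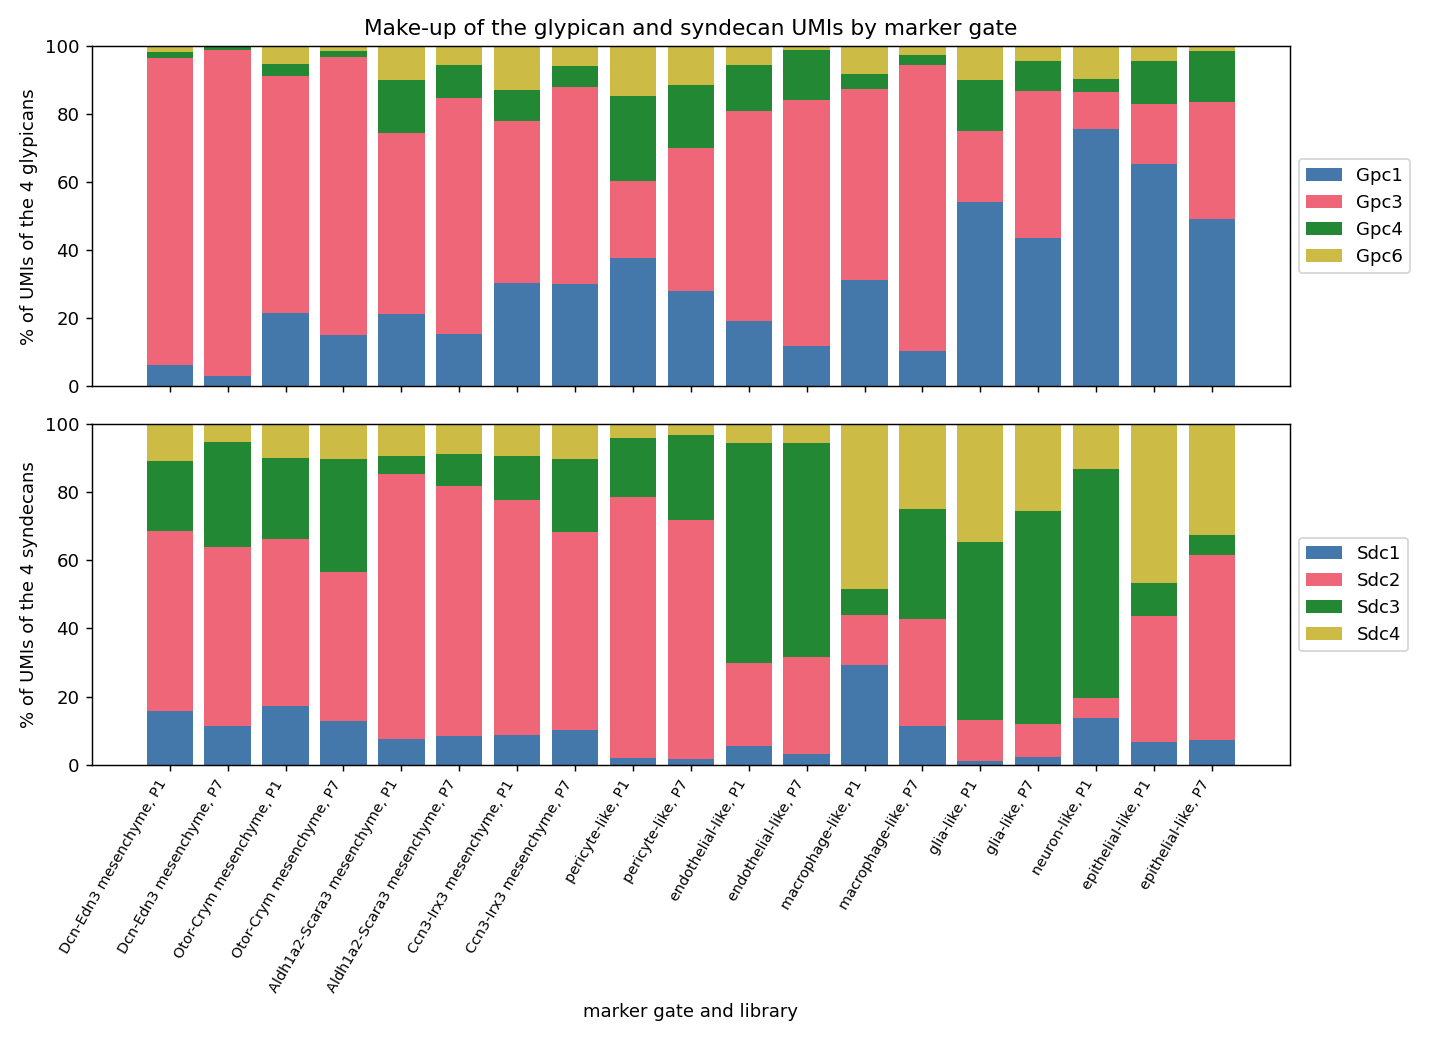
Share of the UMIs of the 4 glypicans (top) and of the 4 syndecans (bottom) given by each gene, in percent, in each marker gate and library. Gpc3 fills over 90% of the glypican bar in Dcn-Edn3 mesenchyme, Sdc2 gives 76.5% and 70.2% of the syndecan bar in pericyte-like cells, and Sdc3 gives 52.2% and 62.6% in glia-like cells.

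Among the syndecans, Sdc2, which is typical of mesenchymal and vascular cells, was highest in pericyte-like cells, the mural cells of small vessels, at 281 CPM (255 to 309) at P1 and 279.6 CPM (255 to 306) at P7. Aldh1a2-Scara3 mesenchyme followed at P1, with 212 CPM, and stood at 224 CPM at P7. The next class at P7 was the epithelial-like cells, with 236 CPM, whose interval overlapped that of the pericyte-like cells. Thinned pericyte-like cells held an Sdc2 UMI in 46.9% and 38.4%, unthinned in 73.5% and 70.2%. In endothelial-like cells, which line the vessels that pericytes cover, the thinned shares were 2.84% and 5.52% and the unthinned shares 9.87% and 14.7%. Median depths were 9315.5 and 6990 UMIs in these cells, against 5087 and 5741 in the pericyte-like cells. In epithelial-like cells Sdc2 stood at 114 and 236 CPM, a log2 ratio of 1.05 (0.77 to 1.34).

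Sdc3, the syndecan of nerve, was highest in glia-like cells, at 124 CPM (117 to 132) at P1 and 163 CPM (157 to 168) at P7. The P1 neuron-like cells followed with 91.1 CPM, and the P7 pericyte-like cells with 99.94 CPM. Thinned glia-like cells held an Sdc3 UMI in 20.5% and 27.9%, unthinned in 41.2% and 53.2%. The lowest thinned shares were 1.27% and 2.92% in macrophage-like cells, with median depths of 7591 and 6511 UMIs against 4618 and 4984.5 in the glia-like cells. Within the glia-like cells, those with myelin genes such as Mbp and Prx had less Sdc3, with 81.7 CPM against 152 CPM in the others at P1, and 134 CPM against 221 CPM at P7. Neither pair of intervals overlapped.

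The level of Sdc3 was higher at P7 in 8 of 9 classes, each with its counting interval above 0. Of these, the macrophage-like class, rested on 10 and 31 UMIs, at 0.764 and 0.924 times the level given by free RNA, and so was at background. The epithelial-like cells were the exception, with 29.7 and 25.7 CPM from 46 and 27 UMIs and a log2 ratio of -0.21 (-0.95 to 0.51). This direction turned with clusters, at 22.4 and 43.0 CPM. The 2-fold rule was passed in Dcn-Edn3 mesenchyme (41.7 and 86.8 CPM, log2 ratio 1.06), in Ccn3-Irx3 mesenchyme (25.7 and 52.2 CPM, 1.02) and, at the threshold itself, in Aldh1a2-Scara3 mesenchyme (14.4 and 29.0 CPM, 1.00). With clusters the Aldh1a2-Scara3 value was 0.85 and the Ccn3-Irx3 value 0.999, both under the rule. In the glia-like cells, where Sdc3 was most abundant, the log2 ratio was 0.39 (0.29 to 0.49). The 4 mesenchymal classes therefore had larger log2 ratios of Sdc3 than the glia-like class as a whole, with no overlap of the intervals. Within that class, the cells with myelin genes, which had less Sdc3, numbered 575 of 1548 at P1 and 2092 of 3398 at P7. Sdc3 was higher at P7 both in these cells and in the other glia-like cells. The part of this make-up in the glia-like ratio was not tested.

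Sdc4, the syndecan of focal adhesions, was highest in epithelial-like cells, at 143 CPM (125 to 163) at P1 and 142 CPM (120.0 to 167) at P7. Glia-like cells came next, with 82.5 and 66.3 CPM. Thinned epithelial-like cells held an Sdc4 UMI in 25.5% and 33.8%, unthinned in 74.2% and 90.1%. The lowest thinned shares were 0.709% in endothelial-like cells at P1 and 0.816% in pericyte-like cells at P7. Macrophage-like cells had 45.8 and 20.6 CPM, a log2 ratio of -1.16 (-1.90 to -0.46), at 8.42 and 2.03 times the level given by free RNA. In epithelial-like cells Sdc4 gave 46.6% of the syndecan UMIs at P1, the largest share, and 32.6% at P7, when Sdc2 gave 54.3%.

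Sdc1, the main syndecan of mature epithelia and plasma cells, was lower in epithelial-like cells than in the leading mesenchymal classes at P1, and at P7 their intervals overlapped. Its levels were 32.0 and 30.9 CPM in Otor-Crym mesenchyme, 31.7 and 32.2 CPM in Dcn-Edn3 mesenchyme and 20.03 (13.6 to 28.4) and 31.4 CPM in epithelial-like cells. In glia-like cells it was low, at 2.80 and 5.86 CPM, with a log2 ratio of 1.06 (0.43 to 1.75). With clusters these levels were 5.23 and 6.87 CPM, and the 2-fold rule was not met. Of the P7 epithelial-like cells, those with tectorial membrane genes had 47.7 CPM (31.2 to 69.9) and the others 13.9 CPM (5.57 to 28.6). These levels came from 26 and 7 UMIs. At P1 the same parts had 17.0 CPM (7.78 to 32.3) and 21.6 CPM (13.5 to 32.7), with overlapping intervals. Mesenchymal cells with division genes such as Mki67 and Top2a had more Sdc1 than the others, with 54.0 CPM against 24.6 CPM at P1 and 57.9 CPM against 28.5 CPM at P7. These cells also had more Gpc3, with 413 CPM against 254 CPM at P1 and 709.5 CPM against 637 CPM at P7. The make-up by class of the dividing cells was not matched to that of the others.

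**Figure D4:**
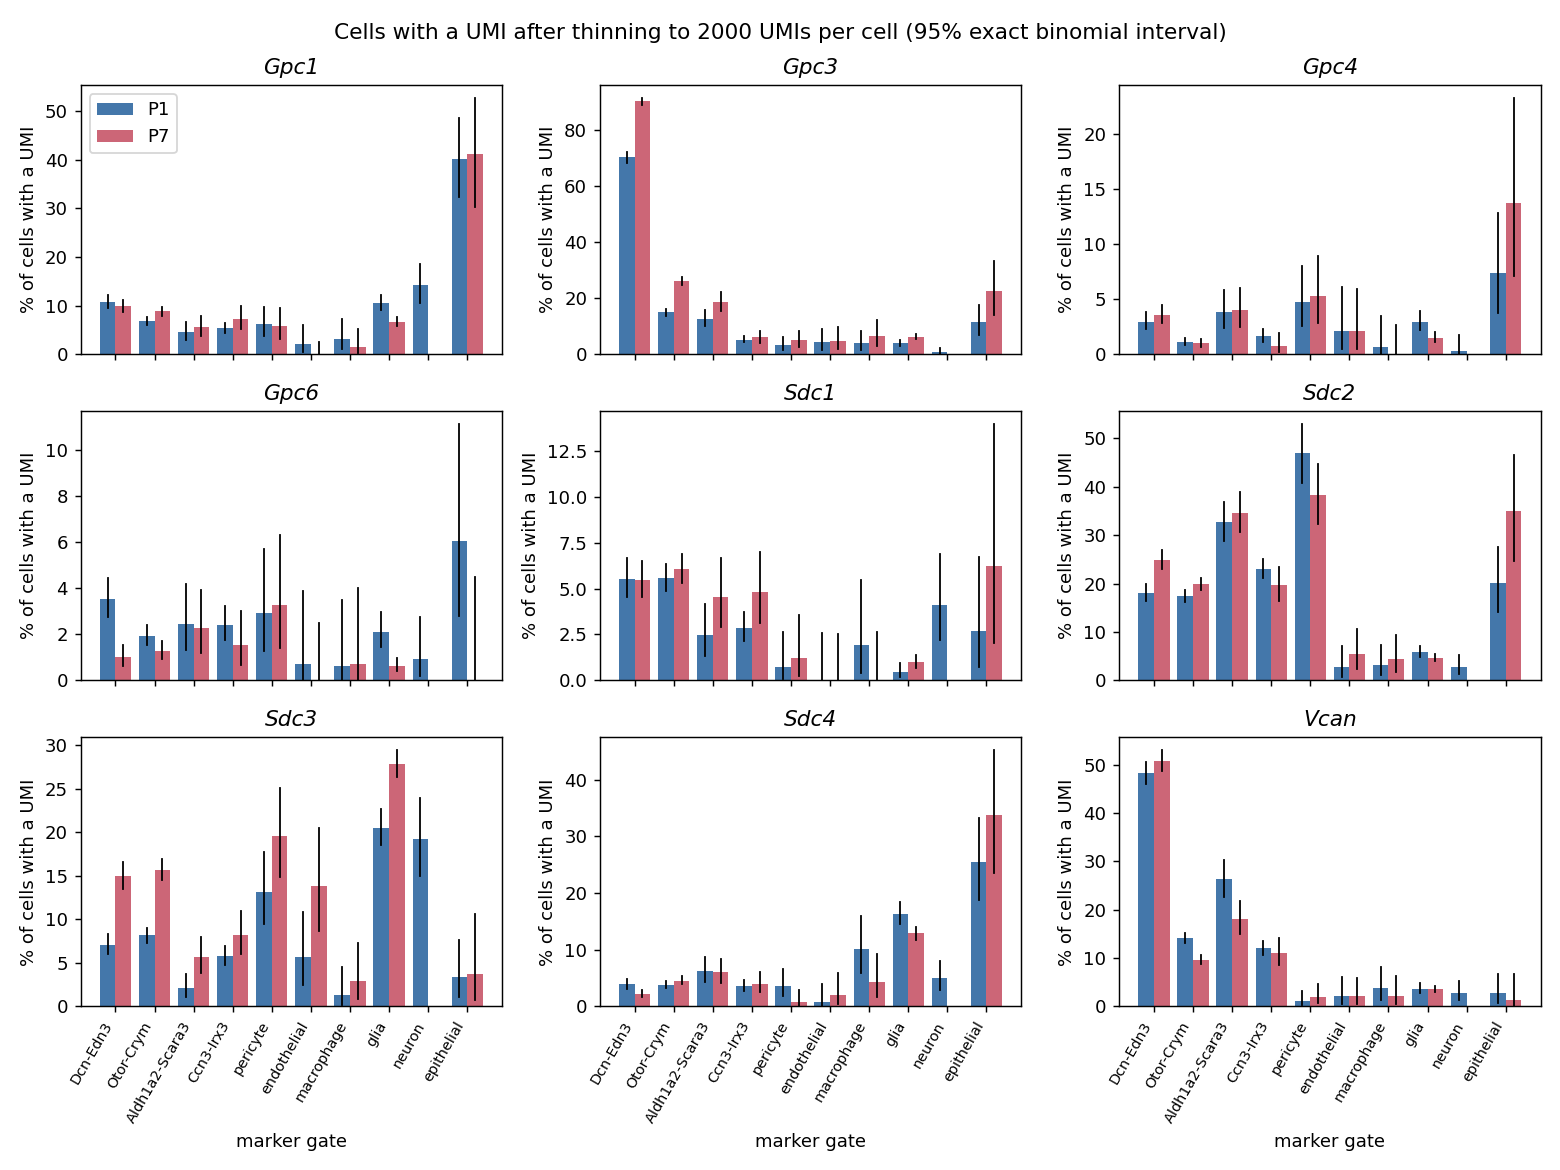
Share of cells with at least 1 UMI of each member, in percent, after thinning every cell to 2000 UMIs, by marker gate at P1 (blue) and P7 (red), with exact binomial intervals, where neuron-like cells have a bar at P1 only. Gpc3 and Vcan peak in Dcn-Edn3 mesenchyme, Gpc1 and Sdc4 in epithelial-like, Sdc2 in pericyte-like and Sdc3 in glia-like cells, while the Sdc1 and Gpc6 bars are low everywhere.

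Versican followed Gpc3 in its leading class. Vcan stood at 414 CPM (404 to 425) at P1 and 441 CPM (431 to 451) at P7 in Dcn-Edn3 mesenchyme, which held 46.3% and 58.7% of its UMIs. Aldh1a2-Scara3 mesenchyme came next, with 199.6 and 140.0 CPM. Thinned Dcn-Edn3 cells held a Vcan UMI in 48.3% and 50.9%, unthinned in 79.0% and 76.6%, against 1.10% and 2.04% of thinned pericyte-like cells, with median depths of 6910 and 6954.5 UMIs in the former and 5087 and 5741 in the latter.

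Between the ages the Vcan level differed little where it was highest, with a log2 ratio of 0.090 (0.040 to 0.14) in Dcn-Edn3 mesenchyme. It was lower at P7 in Otor-Crym mesenchyme, at 89.8 and 63.5 CPM (log2 ratio -0.50, -0.59 to -0.42), and in the Aldh1a2-Scara3 class (-0.51, -0.66 to -0.36). The Otor-Crym direction turned with clusters in place of the gate, at 110.5 and 134 CPM. Within Otor-Crym mesenchyme, thinned cells with a Gpc3 UMI held a Vcan UMI in 25.5% at P1, against 12.1% of cells without one. At P7 these shares were 18.6% and 6.51%. In Dcn-Edn3 mesenchyme the same shares were 51.3% and 41.3% at P1, and 51.7% and 43.3% at P7. They lay close together in Aldh1a2-Scara3 mesenchyme, with 26.9% and 26.2% at P1 and 20.4% and 17.7% at P7. In Ccn3-Irx3 mesenchyme they were 17.2% and 11.7% at P1, and 22.6% and 10.4% at P7, the latter with 31 Gpc3 cells.

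Of the 81 pairs of a member and a class, 58 had enough UMIs. At P7 the level was at least 2-fold higher in 8 pairs, beside 10.7% of all 64928 pairs of a gene and a class with enough UMIs, and at least 2-fold lower in 3 pairs, beside 7.47% of them. The 8 pairs were those of Gpc3, Sdc1, Sdc2 and Sdc3 named above, and the 3 were Gpc6 in glia-like and Dcn-Edn3 cells and Sdc4 in macrophage-like cells. With the pairs near the free RNA level left out, an alternative chosen after the data were seen, 7 and 3 pairs were counted. Of the 11 pairs, 8 were also past 2-fold in the same direction with clusters.

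Patterns over the 19 profiles (10 classes at P1 and 9 at P7) were compared by Pearson's r of log2(CPM + 5), as a description, since profiles of a library share its depth and its free RNA. Among the members, Gpc3 was most like Vcan (r = 0.76), and Gpc1 was like Gpc4 and Sdc4 (r = 0.72 each), whereas Sdc1 and Sdc3 ran apart (r = -0.38). Of the 11709 genes compared, Itgbl1, Lepr and Steap1 were the closest to Gpc3 (r = 0.93 each). Cdh18 was the closest to Vcan (r = 0.96), then LOC102550012 (0.95) and Igsf10 (0.92). Closest to the other members were Hyou1 for Gpc1 (0.95), Gramd1c for Gpc4 (0.86), Tbc1d7 for Gpc6 (0.87), Rbck1 for Sdc1 (0.88), Ephx1 for Sdc2 (0.91), Kctd1 for Sdc3 (0.87) and Ly6g6d for Sdc4 (0.91).

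Of 82 genes listed for the synthesis, trimming and partners of these proteoglycans, 79 were found and 69 had enough UMIs over all cells. At P7, 13 were at least 2-fold higher and 7 at least 2-fold lower, beside 11.2% and 12.4% of all genes with enough UMIs, with a median log2 ratio of 0.31 beside 0.05 over all genes counted. Of the genes that build the chains, the linkage enzyme B3gat3 (67.5 and 70.2 CPM) and the heparan sulfate polymerase subunit Ext2 (49.8 and 66.6 CPM) were the most abundant of their lists, and of the linkage enzymes B3galt6 had a log2 ratio of 1.03. Hs2st1, which adds 2-O-sulfate, led the modifying enzymes at 73.6 and 55.3 CPM. Hs3st1, which adds the rare 3-O-sulfate, had a log2 ratio of 1.85 (1.73 to 1.97), with 7.74 and 27.9 CPM, while Hs6st2 and Hs6st3 were lower at P7, with at most 1 CPM at either age. Both stood highest at P1 in neuron-like cells, at 3.17 and 7.62 CPM, a class of 330 cells at P1 and 26 at P7.

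Genes that trim or release these proteins differed in direction. Notum, which cleaves lipids from Wnt proteins and was first described as a releaser of glypicans, stood at 125 CPM at P1 and 532 CPM at P7 in Ccn3-Irx3 mesenchyme, its highest class, and its log2 ratio over all cells was 1.03 (0.97 to 1.09). Of the sheddases, Adam17 was higher at P7 (20.9 and 49.9 CPM) and Adam10 lower (48.2 and 22.0 CPM). Adam17 stood highest in glia-like cells, at 74.2 and 121 CPM, and these cells made up 12.1% of cells at P1 and 27.0% at P7. The part of this share in ratios over all cells was not tested. The heparan sulfatase Sulf2 was the most abundant gene of this list at P1 (52.8 and 40.8 CPM) and Sulf1 at P7 (45.9 and 73.5 CPM). Of the chondroitin and dermatan sulfate genes, Chst3, Chst12 and Chst14 were higher at P7, with log2 ratios of 1.51, 1.73 and 1.13, and Chst15 was lower, at -2.03, with its highest P1 level (5.39 CPM) in the same neuron-like cells. Chst3 stood highest in glia-like cells, at 11.3 and 21.1 CPM. The most abundant chondroitin and dermatan sulfate genes were Chsy1 at P1 (45.1 CPM) and Chpf at P7 (77.3 CPM).

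Around versican, the hyaluronan synthase gene Has2 had a log2 ratio of 1.22, and the link protein genes Hapln3 and Hapln4 had 1.56 and 4.22, the latter from 6 and 106 UMIs. Tnr was lower at P7, with 54 and 3 UMIs, and stood highest at P1 in neuron-like cells, of which few were found at P7. Fbln2, a fibulin that binds versican, led this list at 136 and 175 CPM. Of the proteases that cleave versican, Adamts9 led at 20.5 and 27.9 CPM and Adamts20 was lower at P7 (12.8 and 6.01 CPM). Among other carriers, the related lectican Acan reached only 0.837 and 3.07 CPM, a log2 ratio of 1.88, and the betaglycan gene Tgfbr3 had 1.09, while Col18a1 at P1 (79.9 CPM) and Agrn at P7 (99.5 CPM) were the most abundant. Tgfbr3 stood highest in glia-like cells, at 102 and 130 CPM, and these cells made up 12.1% of cells at P1 and 27.0% at P7. Gpc2 stood at 9.82 and 8.86 CPM. Of the syndecan partners, the adaptor genes Sdcbp and Cask differed in direction, at 117 and 315 CPM and at 35.9 and 15.4 CPM. Ptn, a secreted ligand of syndecans, was the most abundant gene of all the lists, at 7422 and 8627 CPM.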

How the data were processed

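The cochlear duct libraries of Sprague-Dawley rats were 1 at P1 and 1 at P7, each from pooled animals. The authors aligned reads to rn6 and counted UMIs with Cell Ranger 3.1.0, which also called cells, and the deposited values are these UMI counts per gene and barcode, without normalization. Seurat 3.1.1, named in the submitters' processing notes, made none of these values. Totals were 114285848 UMIs at P1 and 101264868 at P7.

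The filter on barcodes was the one the study states. It asked for a number of genes above 500 and below 5000, for 500 UMIs or more, and for a mitochondrial share below 25%. A cell entered the class with the highest mean of scaled marker levels if that mean was at least 0.2, exceeded the next by 0.05 and 3 markers had a UMI. Cells within 0.05 of these limits made up from 1.21% to 23.7% of the gated cells of the classes reported. No member was a marker. The members, markers and lists were chosen with earlier results of these data known.

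UMIs were summed per class and library, scaled to CPM, and given Poisson intervals. Ratios of P7 to P1 had conditional binomial intervals and detection shares Clopper-Pearson intervals. For detection, cells were thinned to 2000 UMIs and shallower cells left out, 252 at P1 and 711 at P7. The level from free RNA was taken as a member's level in all cells times the level of Otor in a class over that in all cells. Doublets called by Scrublet (598 and 770) were kept, and removed in an alternative.

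The genes named were the members, the most abundant and the at least 2-fold different genes of each list, and the 3 genes most like each member, of which only the closest is given for most. The software was scanpy 1.11.5, pandas 2.3.3, scipy 1.17.1 and numpy 2.4.6 under Python 3.11.15. Fold calls and their intervals were tested on simulated data. The gate was tested so for glia-like and macrophage-like cells with strongly raised markers only, and the mesenchymal gates were not simulated. Alternatives were other limits on cells, doublets removed, other totals, other minimum UMIs, a 1.5-fold rule, a stricter gate, clusters in place of the gate, means over cells, thinning to 4000 UMIs and, added after the data were seen, leaving out pairs near the free RNA level. Gpc5, Hspg2 and Hs3st4 were not analysed here.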

Additional observations from a re-analysis of the deposited data

Results flagged for a closer look

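Of the 9 members, 4 had at least 1 class in which the level was higher at P7 and another in which it was lower, each with enough UMIs and a counting interval that left out 0. The difference between the classes was not tested. For Gpc1 the log2 ratio between the ages (P7 over P1) was 0.42 in Otor-Crym and 0.40 in Ccn3-Irx3 mesenchyme, but -0.51 in glia-like cells and -0.17 in Dcn-Edn3 mesenchyme. Sdc4 had nearly the same layout, with 0.41 in Otor-Crym and 0.40 in Ccn3-Irx3 mesenchyme against -0.32 in glia-like cells, -1.16 in macrophage-like cells and -0.59 in Dcn-Edn3 mesenchyme. For Gpc4 the values were 0.52 in epithelial-like and -0.94 in glia-like cells. For Vcan they were 0.090 in Dcn-Edn3 mesenchyme, against -0.50 in the Otor-Crym and -0.51 in the Aldh1a2-Scara3 classes, but the Otor-Crym value was 0.27 with clusters in place of the marker gate, so its direction rests on how cells were assigned. In sums over all cells these 4 genes differed by at most 0.22 on the log2 scale between the ages.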

How the results depend on the processing

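No paired analysis was possible because each age had 1 library, and for the same reason none could be left out. Over all cells, the count of members at least 2-fold higher at P7 became 2 with means over cells, where Sdc3 reached a log2 ratio of 1.02, and 2 with a 1.5-fold rule. The 8 pairs of a member and a class that were higher became 4 with totals without mitochondrial, ribosomal and haemoglobin genes, 3 with the median gene set at 0, 4 with a minimum of 200 UMIs and 16 with a 1.5-fold rule. The 3 lower pairs became 5 with the median gene at 0, 1 with a minimum of 200 UMIs, 6 with a minimum of 3 UMIs and 7 with a 1.5-fold rule. With doublets removed there were 6 higher and 2 lower pairs, and with the stricter gate 6 and 3. Fewer pairs could be counted with the higher minimum, and for the other settings the cause was not tested. The log2 ratio over all cells ranged from 1.09 to 1.27 for Gpc3, from -1.29 to -1.13 for Gpc6 and from 0.84 to 1.02 for Sdc3. The sign held in 76 of 81 single values, the exceptions being Gpc1, Sdc1 and Vcan, all near 0. These 81 values include the other minimum UMIs and the 1.5-fold rule. Those settings change only which ratios are counted, so the sign could not turn under them. The class with the highest level or share was the same in at least 16 of 18 cases, and the exceptions concerned Gpc6 and Sdc1. Clusters put 88.6% of gated cells in a cluster of the same class, and with them the sign of the ratio turned in 6 of the 58 pairs with enough UMIs. Among the 38 of these whose interval left out 0 it turned in 2, Gpc3 in Ccn3-Irx3 and Vcan in Otor-Crym mesenchyme. Members with few UMIs in small classes, such as Gpc6 in endothelial-like cells with 4 and 1 UMIs, are limited by depth.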
